A study of Homo sapiens with 14 samples.

Results

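The 10 genes described here belong to the NF-κB system and were taken by gene symbol from the RNA-seq tables of UM1 cells. They comprise 3 genes for subunits (NFKB1, NFKB2 and RELB), the feedback inhibitors NFKBIA and TNFAIP3, and 5 target genes (BIRC3, TNFAIP2, ICAM1, LCN2 and SAA1). All 10 were listed in both tables, of 16237 and 16137 genes with 14951 in common, and all 10 passed the filter on low values in both. They were picked with earlier results of these data known, so their counts are no independent evidence of a direction.

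NF-κB factors are dimers of Rel proteins that rest in the cytoplasm, bound by IκB proteins or held by the precursor parts of NFKB1 and NFKB2. Signals from tumour necrosis factor, interleukin 1 or microbial products make IκB kinases mark IκBα (NFKBIA) for destruction, and the freed dimers enter the nucleus and bind κB sites. A second, slower route through the kinase NIK processes the NFKB2 precursor and yields RELB dimers. The factors switch on their own inhibitors, NFKBIA and TNFAIP3 (A20), along with genes of inflammation and survival, and in squamous epithelium the pathway serves the response to injury and microbes.

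UM1 is an established human cell line from a squamous carcinoma of the tongue. In the knockdown experiment, 2 libraries made with an RNA hairpin that targets PRMT5 (shPRMT5), the main enzyme of symmetric arginine dimethylation, are set against 2 whose hairpin targets GFP (shGFP). In the overexpression experiment, 3 libraries of cells overexpressing ΔNp63α, the p63 isoform of basal squamous epithelium, are set against 3 with vector. The series asks how PRMT5 bears on gene regulation by ΔNp63α. The number of hairpins, the promoter of the construct, the culture time and whether a group is 1 clone are not given in the sources used here, and 4 further samples, profiled by CUT&Tag, were not used. The replicates are called biological in the titles without naming separate cultures, so p-values measure the spread between these libraries, which may be technical.

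Values are TPM (transcripts per 1000000), an abundance per transcript length scaled to the same total in each library, so levels of different genes can be compared within a table. The 2 experiments come from separate tables that were normalized separately, and absolute depth is unknown, since TPM keeps none. PRMT5 stood at 143 and 126 TPM in shGFP cells against 29.3 and 33.6 TPM in shPRMT5 cells. With ΔNp63α, TP63 rose from 138, 82.3 and 97.3 TPM with vector to 152, 160.4 and 168 TPM (limma adjusted p = 0.030), and PRMT5 also rose, from 95.4, 61.1 and 68.6 to 131, 97.0 and 118 TPM (limma adjusted p = 0.0325). All 10 squamous markers were listed in both tables, summing to between 12947 and 14505 TPM under shGFP, 13698 and 13837 under shPRMT5, 8072 and 15007 with vector, and 18842 and 34235 with ΔNp63α. Of 10 leukocyte markers 3 were listed in the knockdown table, summing to 9.54 to 14.2 TPM under shGFP and 12.9 to 16.5 under shPRMT5. The overexpression table listed 2 of them, summing to 11.8 to 17.2 TPM with vector and, without overlap, 8.71 to 11.4 with ΔNp63α. PTPRC, CD3E and CD68 were in neither table. Of 8 fibroblast markers 4 were listed in each, COL1A2, DCN, PDGFRA and THY1 in neither, and their sums were higher without overlap in both experiments, from 6.78 to 9.003 TPM under shGFP against 9.35 to 11.8 under shPRMT5, and from 30.2 to 38.7 TPM with vector against 43.1 to 62.0 with ΔNp63α. The sums that do not overlap, some higher and some lower, differ between the same groups as the changes described below, and their part in these changes was not tested. In bulk libraries, fewer cells of a type and less RNA per cell cannot be told apart.

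NF-κB dimers bind κB sites, so promoter sequences of these genes that match the κB consensus are shown first. RefSeq windows of assembly GRCh38.p14, from 250 bases before to 50 after an annotated start, were matched by symbol for 8 of the 10 genes, with 11 windows in all. RELB and SAA1 were not matched. Windows of 4 genes follow, 5′ to 3′ on the strand of the gene, with matches on either strand to the κB consensus (GGG, a purine, any 2 letters, 2 pyrimidines and CC) in capitals. They belong to both inhibitors and to the precursor subunits NFKB1 and NFKB2.
NFKBIA, chr14:35404700-35404999, minus strand: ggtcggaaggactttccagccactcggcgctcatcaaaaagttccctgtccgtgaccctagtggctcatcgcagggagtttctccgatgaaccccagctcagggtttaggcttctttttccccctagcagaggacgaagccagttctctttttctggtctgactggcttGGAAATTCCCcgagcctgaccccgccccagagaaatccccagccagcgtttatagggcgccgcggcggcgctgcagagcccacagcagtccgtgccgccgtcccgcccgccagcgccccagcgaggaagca
TNFAIP3, chr6:137867009-137867308, plus strand: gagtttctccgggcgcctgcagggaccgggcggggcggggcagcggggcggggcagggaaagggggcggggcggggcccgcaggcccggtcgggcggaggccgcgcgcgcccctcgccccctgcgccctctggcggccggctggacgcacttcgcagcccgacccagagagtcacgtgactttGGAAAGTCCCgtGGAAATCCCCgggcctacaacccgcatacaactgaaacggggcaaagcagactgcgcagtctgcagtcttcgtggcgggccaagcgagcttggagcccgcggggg
NFKB1, first of 2 annotated starts, chr4:102501109-102501408, plus strand: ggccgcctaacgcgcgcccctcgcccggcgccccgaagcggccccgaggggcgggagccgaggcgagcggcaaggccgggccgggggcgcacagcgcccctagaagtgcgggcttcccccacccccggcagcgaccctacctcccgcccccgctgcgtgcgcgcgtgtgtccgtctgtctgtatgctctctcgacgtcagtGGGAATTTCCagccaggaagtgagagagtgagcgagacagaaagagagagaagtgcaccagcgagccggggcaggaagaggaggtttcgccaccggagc
NFKB2, second of 3 annotated starts, chr10:102394328-102394627, plus strand: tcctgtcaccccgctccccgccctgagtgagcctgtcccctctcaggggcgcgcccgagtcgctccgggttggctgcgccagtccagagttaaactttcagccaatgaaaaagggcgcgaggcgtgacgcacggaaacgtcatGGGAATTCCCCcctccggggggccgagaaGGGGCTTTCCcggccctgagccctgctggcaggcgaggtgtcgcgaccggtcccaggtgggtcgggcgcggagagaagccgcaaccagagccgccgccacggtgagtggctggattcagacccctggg

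NFKBIA held 1 match, which reads GGGAATTTCC on the opposite strand and begins 81 bases before the start. TNFAIP3 held 2 matches on the opposite strand, GGGACTTTCC and GGGGATTTCC, 67 and 55 bases before the start and separated by 2 letters. NFKB1 held GGGAATTTCC 49 bases before its first start. NFKB2 held GGGGCTTTCC 78 bases before its second start, beside overlapping matches that begin 107 and 106 bases before it, and GGGGCTTCCC and GGGACTTTCC 176 and 21 bases before the last of its 3 annotated starts. BIRC3 held GGGGATTTCC and GGGGAACTCC, 199 and 135 bases before its start on the opposite strand, and LCN2 held GGGACATTCC at 175 bases.

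The consensus was found in 7 of the 11 windows, for 6 of the 8 genes, against 11.3% of 35116 promoter windows and 13.3% of 27305 genes. A stricter form (GGG, any 2 letters and TTTCC), searched on both strands and overlapping the consensus, was found in 6 of the 11 windows, for 5 genes, against 1.91% of all windows. The windows of TNFAIP2 and ICAM1 held neither, which says only that these letters are not in them. A match is a description of the letters and not evidence of binding, and the genes were chosen as NF-κB genes.

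**Figure D1:**
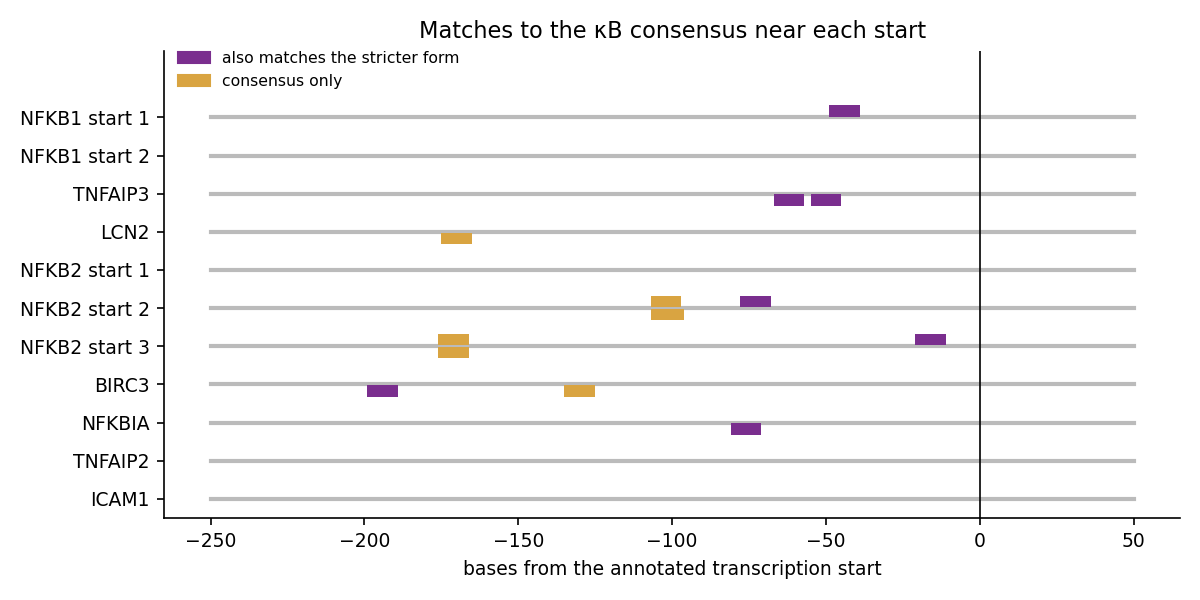
Position of κB consensus matches in bases from the annotated transcription start (x axis) for the 11 promoter windows of 8 genes, with bars above the line on the strand of the gene and below it on the other strand. The matches of NFKBIA, TNFAIP3 and the first start of NFKB1 begin between 49 and 81 bases before the start.

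Under ΔNp63α, 9 of the 10 genes fell and none rose, and NFKB1 was the one not called. BIRC3, which is among the 9, passed the filter on low values only through the vector libraries. The libraries of those 9 genes did not overlap between the groups either, a pattern that 23.7% of all genes tested showed downward and 14.2% upward. The falls ran from 1.60-fold for NFKBIA to 9.94-fold for LCN2, and 5 of the genes fell more than 4-fold in mean TPM. BIRC3 is among these 5, with a log2 change of -1.24 on the tested scale. Over all 13382 genes tested, 21.5% were called, 14.1% lower and 7.34% higher. The median log2 change of the 10 genes was -1.26, beside -0.04 over all genes. Calls are at a limma adjusted p under 0.05 on log2(TPM + 1), a scale that understates the change of genes with low values.

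Among the subunits, NFKB2, which encodes the p100 precursor of p52, stood at 63.1, 66.9 and 65.0 TPM with vector and at 35.4, 26.6 and 31.4 TPM with ΔNp63α. Its groups did not overlap, and the log2 change was -1.05 (SE 0.16, limma adjusted p = 0.000688). RELB, the partner of p52 in the slower route, stood at 43.3, 40.7 and 36.3 TPM with vector and at 24.5, 15.7 and 17.9 TPM with ΔNp63α. It fell in the same measure, with a log2 change of -1.03 (SE 0.18, limma adjusted p = 0.00229). NFKB1, which encodes the p105 precursor of p50, stood at 25.6, 18.8 and 21.6 TPM with vector and at 19.3, 14.1 and 17.9 TPM with ΔNp63α. Its groups overlapped, and the log2 change of -0.35 was not called (95% interval -0.75 to 0.05, limma adjusted p = 0.199). RELA, the most widely used activating subunit and not one of the 10 genes, went from 76.9 ± 10.1 to 55.1 ± 6.18 TPM (SD, n = 3 each) without a call (log2 change -0.47, limma adjusted p = 0.0549). Its groups did not overlap, as for 23.7% of all genes downward, and the 95% interval was -0.82 to -0.12.

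Both feedback inhibitors were lower. NFKBIA, which encodes IκBα and was the second most abundant of the 10 genes with vector, stood at 243, 299 and 265 TPM with vector and at 177, 148 and 180.0 TPM with ΔNp63α. Its log2 change of -0.67 was the smallest called (SE 0.15, limma adjusted p = 0.00708). TNFAIP3, which encodes the ubiquitin-editing enzyme A20, stood at 15.2, 15.3 and 17.2 TPM with vector and at 3.97, 3.41 and 4.25 TPM with ΔNp63α. The highest ΔNp63α library lay below every vector library by more than 3-fold, with a log2 change of -1.80 (SE 0.18, limma adjusted p = 4.15e-05).

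The widest gaps were among the target genes. TNFAIP2, a TNF-induced protein of membrane protrusions, stood at 329, 312 and 373 TPM with vector and at 53.8, 50.5 and 60.7 TPM with ΔNp63α (log2 change -2.60, SE 0.14, limma adjusted p = 6.4e-07). ICAM1, the adhesion molecule that binds leukocyte integrins, stood at 55.2, 46.0 and 68.2 TPM with vector and at 8.53, 7.73 and 8.06 TPM with ΔNp63α. It was 6.96-fold lower in mean TPM (log2 change -2.64, SE 0.18, limma adjusted p = 2.65e-06). The 3 ΔNp63α libraries differed little from one another in both genes.

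LCN2, lipocalin 2, which withholds iron from bacteria, stood at 51.6, 143 and 138 TPM with vector and at 7.99, 13.2 and 12.3 TPM with ΔNp63α. Vector replicate 1 lay well below the other 2 vector libraries but above all ΔNp63α libraries, and the log2 change was -3.09 (SE 0.33, limma adjusted p = 7.96e-05). SAA1, an acute phase protein of the serum amyloid A family, stood at 10.98, 9.35 and 6.43 TPM with vector and at 2.27, 2.90 and 4.07 TPM with ΔNp63α (log2 change -1.28, SE 0.24, limma adjusted p = 0.00287). SAA1 and SAA2 are near-identical, so reads could be split between them, and the level of SAA1 is uncertain in both experiments.

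BIRC3, the inhibitor of apoptosis cIAP2, was the least abundant, at 1.10, 3.85 and 4.16 TPM with vector and at 0.439, 1.01 and 0.387 TPM with ΔNp63α. Its ΔNp63α mean of 0.611 TPM lay under the filter at a mean TPM of 1. The lowest vector library and the highest ΔNp63α library were close to each other, and the log2 change was -1.24 (SE 0.33, limma adjusted p = 0.0191). The call was lost without vector replicate 2 or 3 or ΔNp63α replicate 1, where the adjusted p lay between 0.0699 and 0.0821. Of its 10 nearest tested neighbours in RefSeq gene order, 4 were also called lower, and their median log2 change was -0.55. For the other 8 called genes the median of the 10 neighbours lay between -0.37 and 0.13, and each kept its call in all 15 alternative fits.

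**Figure D2:**
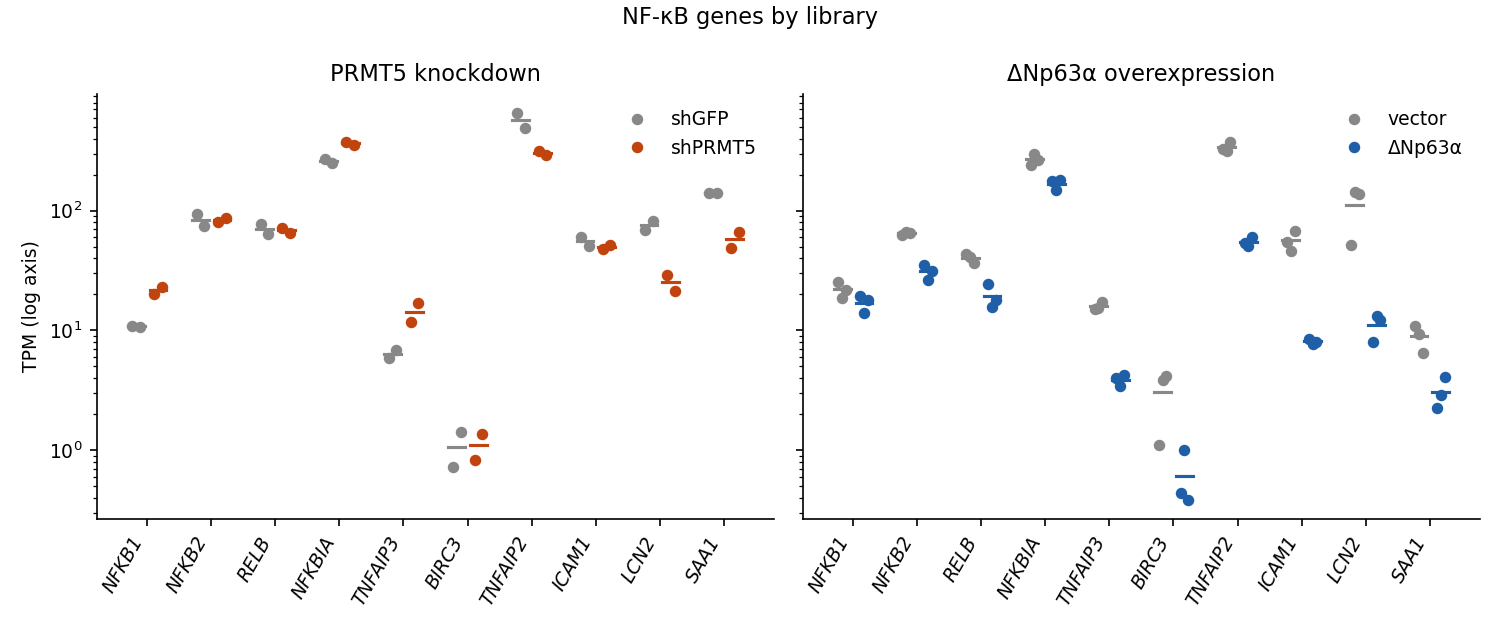
TPM of each gene (y axis, log scale) in the shGFP and shPRMT5 libraries (left) and in the vector and ΔNp63α libraries (right), with 1 point per library and a short line at the group mean. With ΔNp63α the points of 9 genes lie below all vector points, and with shPRMT5 NFKB1, NFKBIA and TNFAIP3 lie above and TNFAIP2, LCN2 and SAA1 below the shGFP points.

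Under the PRMT5 hairpin the genes divided. NFKB1, NFKBIA and TNFAIP3 rose, TNFAIP2, LCN2 and SAA1 fell, and NFKB2, RELB, BIRC3 and ICAM1 were not called. Over all 12635 genes tested, 18.6% were called, 15.1% higher and 3.48% lower. Libraries that did not overlap were found upward for 49% and downward for 14% of all genes, and upward and downward for 3 of the 10 each. The median log2 change of the 10 genes was -0.02, beside 0.25 over all genes. Median-of-ratios rescaling of the libraries moved the median of all genes by -0.24, and 3.80% were then called higher and 7.01% lower. The same scaling left 2 of the 10 genes called higher and 3 lower. After quantile normalization 1 was higher and 3 lower, with 3.17% of all genes higher and 4.47% lower.

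NFKB1 stood at 10.99 and 10.6 TPM in shGFP cells against 20.1 and 23.2 TPM in shPRMT5 cells. The libraries of a group were close and the log2 change was 0.94 (SE 0.22, limma adjusted p = 0.00573). After rescaling the log2 change was 0.68 (adjusted p = 0.0368), and the call was lost after quantile normalization and without shPRMT5 replicate 2, the highest adjusted p over 12 alternative fits being 0.207. NFKB2 stood at 93.5 and 74.4 TPM in shGFP cells against 80.0 and 86.3 TPM in shPRMT5 cells, with overlapping groups and a 95% interval of -0.36 to 0.35 for its log2 change. RELB stood at 77.2 and 63.7 TPM in shGFP cells against 71.3 and 65.7 TPM in shPRMT5 cells, also with overlapping groups (95% interval -0.40 to 0.33).

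TNFAIP3 stood at 5.91 and 6.81 TPM in shGFP cells against 11.8 and 16.9 TPM in shPRMT5 cells, a log2 change of 1.04 (SE 0.25, limma adjusted p = 0.00593). The log2 change was 0.80 after rescaling (adjusted p = 0.0282), and the call was lost after quantile normalization and without shPRMT5 replicate 2, with adjusted p-values up to 0.256 over 12 fits. Of its 10 nearest tested neighbours in gene order, 4 were called higher and their median log2 change was 0.59, and the part of this in the result was not tested. NFKBIA stood at 270.3 and 252 TPM in shGFP cells against 375 and 356 TPM in shPRMT5 cells, which do not overlap. Its log2 change of 0.48 (SE 0.14, limma adjusted p = 0.0218) was 0.21 after rescaling, no longer a call (adjusted p = 0.445, the highest of 12 fits), and was called in 6 of the 12.

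The 3 falls were called in all 12 alternative fits. LCN2 stood at 68.5 and 82.0 TPM in shGFP cells against 28.9 and 21.5 TPM in shPRMT5 cells. Both shPRMT5 libraries lay far below both shGFP libraries, and the log2 change of -1.55 (SE 0.20) ranged from -1.82 to -1.34 over these fits. SAA1 stood at 139.95 and 140.9 TPM in shGFP cells against 49.1 and 66.7 TPM in shPRMT5 cells (log2 change -1.28, SE 0.18). SAA2, its near-identical neighbour, was too low to be tested, at 1.06 and 1.04 TPM in shGFP cells against 0.179 and 0.316 TPM in shPRMT5 cells. TNFAIP2 stood at 656 and 492 TPM in shGFP cells against 315 and 292 TPM in shPRMT5 cells, and fell 1.89-fold in mean TPM (log2 change -0.90, SE 0.15, limma adjusted p = 0.000244). The 10 nearest tested neighbours of TNFAIP2 had a median log2 change of 0.61, with 5 called higher and 0 lower.

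ICAM1 stood at 60.8 and 50.3 TPM in shGFP cells against 47.8 and 51.4 TPM in shPRMT5 cells, with overlapping groups and a 95% interval of -0.53 to 0.22 for the log2 change. BIRC3 stood at 0.719 and 1.41 TPM in shGFP cells against 0.826 and 1.37 TPM in shPRMT5 cells. Neither was called, and at this level the interval for BIRC3, -0.60 to 0.67, allows a change in either direction. Of the promoter windows described above, those of all 3 genes that rose hold a κB match, as do those of NFKB2 and BIRC3, which were not called, and of LCN2, which fell. Those of TNFAIP2, which fell, and ICAM1, which was not called, hold none, nor do the second window of NFKB1 and the first of NFKB2, and SAA1 and RELB had no window.

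**Figure D3:**
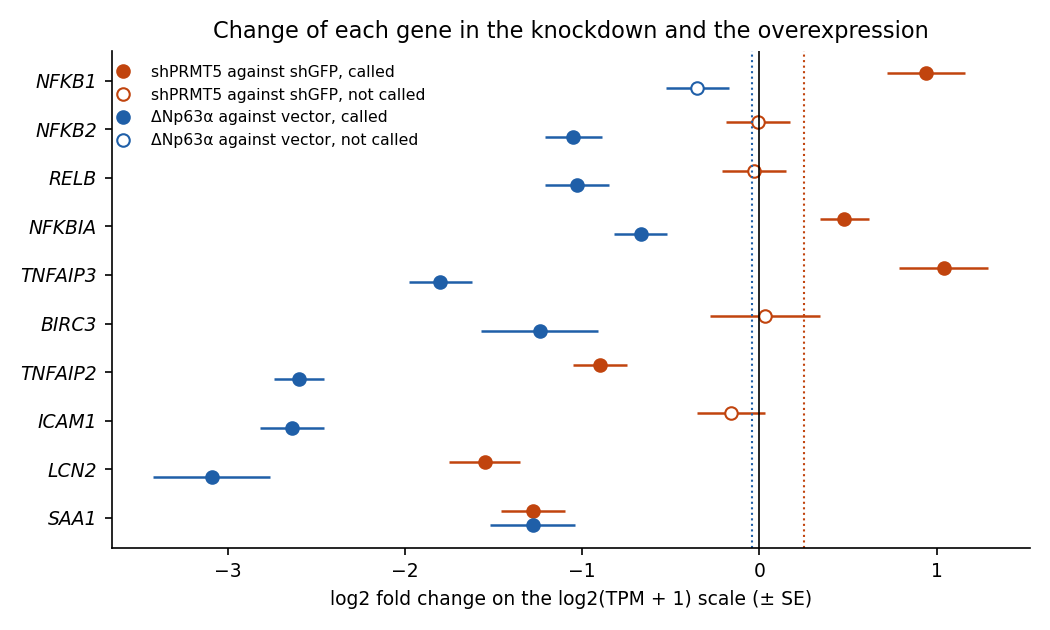
Log2 change with its standard error (x axis, log2(TPM + 1) scale) of each gene under shPRMT5 and under ΔNp63α, with filled points for called genes and dotted lines at the median of all genes tested. Under ΔNp63α 9 filled points lie below 0, while under shPRMT5 filled points lie on both sides.

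Set side by side, 3 genes were lower in both experiments (TNFAIP2, LCN2 and SAA1), 2 were higher under shPRMT5 and lower under ΔNp63α (NFKBIA and TNFAIP3), and 4 were called lower under ΔNp63α alone (NFKB2, RELB, BIRC3 and ICAM1). NFKB1 was called higher under shPRMT5 alone. The rises under shPRMT5 were less firm than the falls. NFKBIA was no longer called after median-of-ratios rescaling (limma adjusted p = 0.445). NFKB1 and TNFAIP3 were not called after quantile normalization (limma adjusted p = 0.0565 and 0.0611). The experiments share no libraries, and a difference between their effects was not tested. Levels also stood apart between the separately normalized control groups, most for SAA1, at 139.95 and 140.9 TPM in shGFP cells and a mean of 8.92 TPM with vector.

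Ratios of genes within a library do not depend on a factor that scales all genes of that library alike. Quantile normalization can change them, and they were not computed after it. The ratio of NFKB2 to NFKB1 was 8.50 and 7.01 under shGFP and 3.98 and 3.71 under shPRMT5, and between 2.47 and 3.56 in the 3 libraries with vector and at 1.83, 1.88 and 1.76 in those with ΔNp63α. It was thus lower without overlap in both experiments, with differences of -1.01 and -0.71 on the log2 scale. Different genes moved, however. Under shPRMT5 the log2 change was 0.94 for NFKB1 and -0.01 for NFKB2, and under ΔNp63α it was -0.35 and -1.05. The ratio of RELB to RELA was 0.519, 0.624 and 0.444 with vector and 0.401, 0.323 and 0.322 with ΔNp63α, again without overlap, whereas 1 shPRMT5 library (0.825, beside 0.716) had the ratio of the lower shGFP library (0.825, beside 0.881) to 3 digits. Exact two-sided permutation tests gave p = 0.1 for both ratios in the overexpression and p = 0.333 in the knockdown, the smallest values that 3 against 3 and 2 against 2 libraries allow. Adjusted over the 8 ratio tests each p was 0.333.

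The ratio of NFKBIA to NFKB1 went from 24.6 and 23.7 under shGFP to 18.6 and 15.3 under shPRMT5 (exact permutation p = 0.333). With ΔNp63α it lay at 9.15, 10.5 and 10.1, within the span of the vector libraries at 9.48, 15.9 and 12.2 but for the lowest library (exact permutation p = 0.3). The ratio of BIRC3 to its paralog BIRC2 lay between 0.0672 and 0.237 with vector and between 0.0334 and 0.0692 with ΔNp63α (exact permutation p = 0.2), and between 0.168 and 0.247 under shGFP and 0.114 and 0.153 under shPRMT5 (exact permutation p = 0.333).

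**Figure D4:**
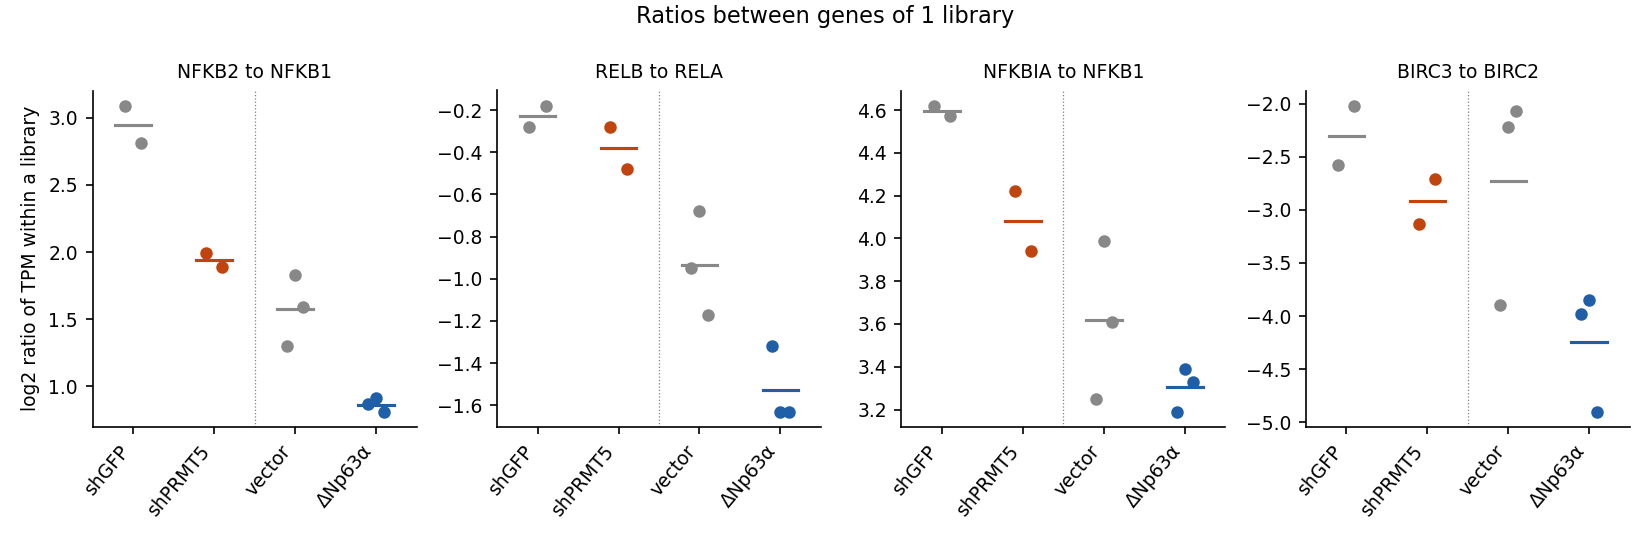
Log2 ratio of the TPM of 2 genes of the same library (y axis) for 4 gene pairs, with 1 point per library and a line at the group mean; the dotted line separates the experiments. The NFKB2 to NFKB1 ratio is lower in both shPRMT5 libraries than in both shGFP libraries and lower in all ΔNp63α than in all vector libraries.

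The rest of the pathway was read from 9 lists by role, leaving out the 10 genes. These lists were chosen with earlier results of these data known, so their counts are no independent evidence of a direction. Of their 105 genes, 83 were in the knockdown table and 78 in the overexpression table, and 71 were tested in each. The rest were not tested. Under ΔNp63α, 34 of 71 tested genes (47.9%) were called lower and 1 (1.41%) higher, beside 14.1% and 7.34% of all genes, with a median log2 change of -0.58 beside -0.04 over all genes. After rescaling 32 were lower, with 13% of all genes lower and 10.5% higher. The 71 are not the same genes in both experiments. REL, TRAF5, CCL5, IER3 and HLA-F were tested under ΔNp63α only, and IL1B, CXCL3, CCL20, CSF2 and S100A9 under shPRMT5 only. CCL5, IER3 and HLA-F were called lower under ΔNp63α and IL1B under shPRMT5. Under shPRMT5, 3 of 71 (4.23%) were lower and 6 (8.45%) higher, beside 3.48% and 15.1% of all genes. The lower share was thus near that of all genes and the higher share below it. The median log2 change was 0.22 beside 0.25 over all genes, and after rescaling 4 were lower and 0 higher.

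Of 15 other targets under ΔNp63α, 12 were lower and CD83 was higher, beside 14.1% of all genes lower and 7.34% higher. F3, the tissue factor that starts coagulation, fell from 86.5 ± 4.98 to 12.8 ± 3.72 TPM (SD, n = 3 each), PLAU, the urokinase, fell 7.05-fold and IER3, an early response gene, 4.94-fold. CD83, an activation marker of dendritic cells, rose from 23.3 to 34.5 TPM, a call that was lost without vector replicate 3 or without ΔNp63α replicate 2 or 3. Of 16 cytokine and chemokine targets 5 were tested, and 4 of these were lower. CCL2 and CXCL2 (means of 0.318 and 0.687 TPM with ΔNp63α) passed the filter at a mean TPM of 1 only through the vector libraries. Both count among these 4 and among the 34 lower genes of the lists, and their falls are no support for a direction. CSF1, the macrophage growth factor, fell 3.32-fold and the chemokine CCL2 from 2.11 ± 0.765 to 0.318 ± 0.0611 TPM, while CCL5, also lower, ranged from 9.36 to 60.6 TPM among the vector libraries.

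Over all genes 14.1% were called lower under ΔNp63α, the share to set beside each count that follows. Inhibitors other than TNFAIP3 were lower in 5 of 10 cases. TNIP1, a partner of A20, fell from 155 ± 15.1 to 73.0 ± 6.50 TPM, the ribonuclease ZC3H12A fell 2.18-fold and TNIP2 1.75-fold. Of 5 further IκB-like genes 2 were lower: BCL3, a nuclear cofactor of p50 and p52, fell from 73.2 ± 3.34 to 15.5 ± 2.40 TPM, and NFKBIE, which encodes IκBε, fell 2.04-fold. Of 19 receptors and adaptors 7 were lower, among them the TNF receptor TNFRSF1A (from a mean of 136 to 65.1 TPM), the death receptor TNFRSF21 (2.17-fold) and the adaptor TRAF1 (3.58-fold). Among 11 IKK and upstream kinase genes only TAB3 and IKBKE were lower, a share of 18.2% that is near that of all genes. After rescaling 1 was lower. The IKBKE call (limma adjusted p = 0.0464) was lost in 10 alternative fits. Among them were rescaling (adjusted p = 0.0568), quantile normalization and each fit without 1 library. Of 9 ligands 2 were tested, and both fell. IL1A went from 25.8 ± 6.15 to 1.31 ± 0.309 TPM, and its 19.7-fold ratio rests on ΔNp63α values near the filter. TNFSF10, the ligand TRAIL, fell 3.55-fold. The 2 tested genes of the linear ubiquitin ligase were not called.

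Under shPRMT5 the ligands IL1B and IL1A fell 5.78-fold and 2.44-fold, and the complement gene C3 fell 1.60-fold, a call lost in 6 alternative fits. The 6 genes called higher made up 8.45% of the 71 tested, below the 15.1% of all genes. They comprised TAB2, TAB3 and the kinase MAP3K7 (TAK1), which together feed the IκB kinases, the adaptor kinase RIPK1, the inhibitor N4BP1 and PLAU. Their ratios of mean TPM lay between 1.76 and 2.26. None of the 6 was called after rescaling, where the adjusted p lay between 0.0584 and 0.149. None of the 5 IκB-like genes and none of 7 cytokine and chemokine targets was called.

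**Figure D5:**
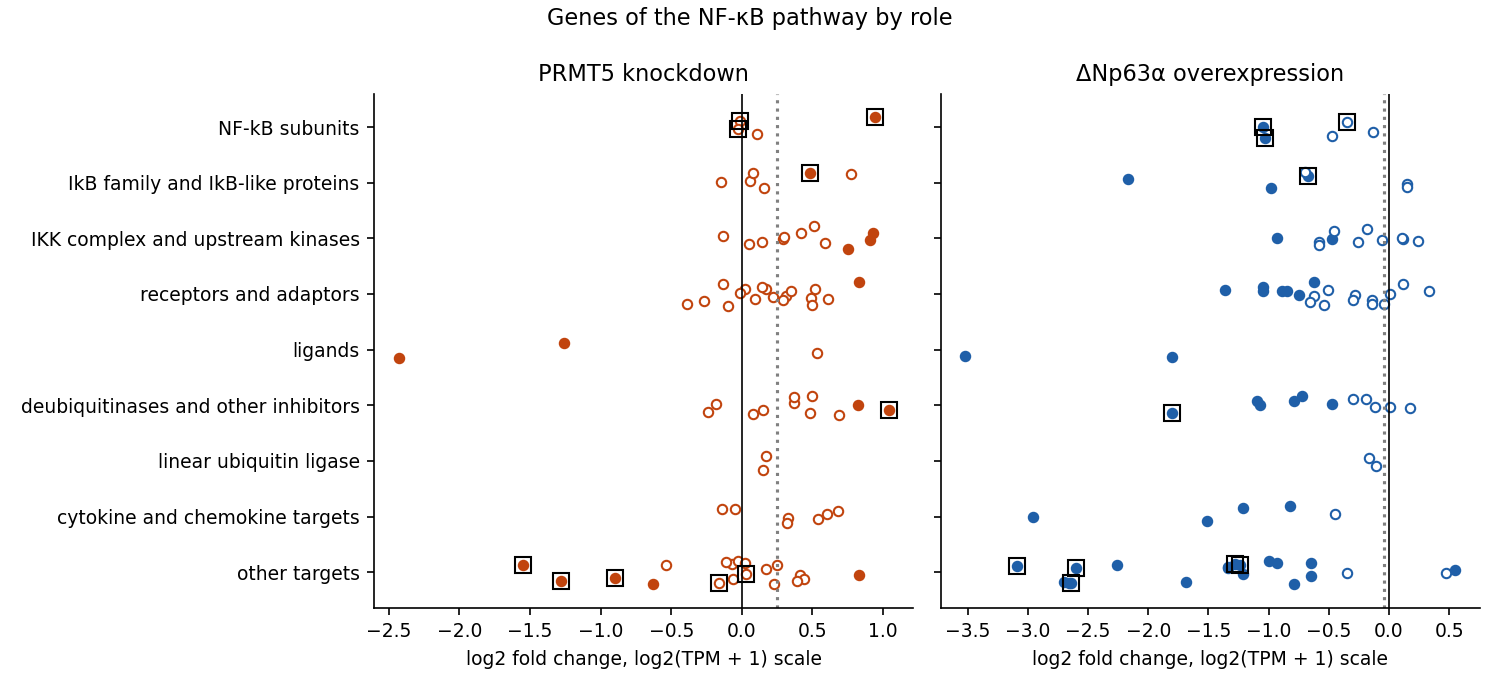
Log2 change (x axis) of every tested gene of 9 role lists under shPRMT5 (left) and ΔNp63α (right), with filled points for called genes, squares around the 10 genes, and a dotted line at the median of all genes tested. Filled points under ΔNp63α lie below 0 in every list that has any, save CD83 among other targets.

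The genes whose profile came nearest to the mean profile of the 10 were RHBDL1, SLC12A4 and POLM. Likeness was the root mean square difference of log2(TPM + 1), centred within each table, over 10 libraries and 11999 genes tested in both, and it was 0.079, 0.103 and 0.108 for these genes, beside a median of 0.659. RHBDL1, a rhomboid-family protein, went from 31.7 to 9.63 TPM with ΔNp63α and from 68.7 to 64.1 TPM with shPRMT5, where none of the 3 was called. SLC12A4 is a potassium chloride cotransporter and POLM a DNA polymerase, and both were also called lower with ΔNp63α. The 3 were picked for nearness to a mean that falls with ΔNp63α and in which rises and falls under shPRMT5 largely cancel. Their changes in both experiments therefore follow from the choice. Of the 10 genes themselves NFKB2 (0.234, rank 199 of 11999) and RELB (0.282) lay nearest to that mean and NFKB1 (0.609) and LCN2 (0.829) farthest from it.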

How the data were processed

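Expression is in TPM as deposited by the authors, 1 table per experiment, every column summing to 1000000. Neither table holds a 0, which means that genes undetected in even 1 library are not in it. The submitters' processing notes name Bowtie, featureCounts, FastQC, DESeq2 (1.24.0), GRCh37 and hg19, per the labels, without saying what each was for. The tool that made the TPM is likewise not stated in them.

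Rows without a gene (2 and 1) were dropped, and 9 symbols in each table that read as dates were recovered by gene ID. The tables were analysed separately. On log2(TPM + 1), genes whose mean TPM reached 1 were tested with limma 3.58.1 under R 4.3.3 (eBayes with trend, two-sided), with Benjamini-Hochberg adjustment over the whole table and calls at an adjusted p under 0.05. This step was tested on simulated data. Folds given without log2 are ratios of mean TPM. SciPy 1.17.1 gave the exact permutation tests and Matplotlib 3.10.9 the figures.

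The 10 genes and the lists were chosen with earlier results of these data known. The text names the 10, PRMT5, TP63, RELA, BIRC2, the called genes with the largest changes in each list (up to 3 per direction and experiment) and the 3 nearest profiles. SAA2 and the neighbouring genes were added after values were seen. RefSeq on GRCh38.p14 served only for promoter sequence and gene order. Alternatives were another pseudocount (0.1), filters (none, or mean TPM of 5), scalings (median-of-ratios, quantile, without mitochondrially encoded genes) and models (no trend, a replicate block, both tables in 1 fit), and leaving out each library.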

Additional observations from a re-analysis of the deposited data

How the results depend on the processing

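Absolute depth is unknown, so no counting error can be given, and with 2 libraries per group the knockdown has the fewest residual degrees of freedom; where a library is left out there, the lone library is assumed to vary like the others. Of all genes in the knockdown, 2344 were called, against 1496 in 1 fit over both tables, 1366 after median-of-ratios rescaling, 993 with no filter, 1153 with no trend, 965 after quantile normalization, and between 324 (without shPRMT5 replicate 2) and 3101 with 1 library left out. In the overexpression, 2875 were called, and between 1576 and 3207 with 1 library left out. The genes called higher under shPRMT5 numbered 3 of the 10, 1 after quantile normalization, and between 0 (without shPRMT5 replicate 2) and 3 with 1 library left out; the 3 lower numbered 3 in every alternative. Those called lower under ΔNp63α numbered between 8 and 9. In the pathway lists under shPRMT5, 3 were lower, 1 in 1 fit over both tables and between 2 and 9 with 1 library left out. The 6 higher were 0 after rescaling, 2 with no filter, 1 after quantile normalization, 11 with the replicate block and between 0 and 8 with 1 library left out. Under ΔNp63α the 1 higher gene of the lists was between 0 and 2 with 1 library left out, and the 34 lower between 24 and 34. Changes of sign concerned uncalled values under shPRMT5 only: NFKB2 was 0.16 without shGFP replicate 1 and 0.05 without shPRMT5 replicate 1 (lowest -0.17 with 1 library left out), RELB was 0.10 without shGFP replicate 1 and 0.02 without shPRMT5 replicate 2 (lowest -0.17), and BIRC3 was -0.11 after rescaling, -0.14 after quantile normalization and -0.21 without shGFP replicate 1 (highest 0.22). The cause of these shifts was not tested. BIRC3 fell under the filter at a mean TPM of 5 in both tables, and in the knockdown also without shGFP replicate 2 and without shPRMT5 replicate 2. The knockdown table lists 0 mitochondrially encoded genes, so leaving them out gave no value there.

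The replicate numbers were not taken to pair the libraries. Same-numbered deviations from the group means correlated at 0.087 in the knockdown and at 0.324, 0.231 and 0.086 in the overexpression. There vector replicate 3 correlated best with ΔNp63α replicate 2 (0.137), and the other differently numbered pairs lay between -0.332 and 0.029. With the replicate block as a term, 3 of the 10 genes were called lower and 3 higher under shPRMT5, and 9 lower under ΔNp63α. Over all genes, 3486 were then called in the knockdown and 3889 in the overexpression, and 41 genes of the lists were lower under ΔNp63α. The NFKB2 to NFKB1 difference ranged from -1.15 to -0.87 in the knockdown and from -0.84 to -0.58 in the overexpression with 1 library left out. No ratio changed sign under the alternatives run. The κB consensus was found for 6 genes and the stricter form for 5.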
